A study of Mus musculus with 18 samples.

Results

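Hearts of mice given angiotensin II (AngII) together with ethoxysanguinarine (ETH) were compared with hearts of mice given saline. The libraries were chosen by their treatment label, which put 6 in the AngII+ETH group and 6 in the saline group, 12 of the 18 libraries of the series. The other 6 libraries received AngII alone and are given beside the comparison. All mice were labelled wild type (C57BL/6 in the series' title) and were treated for 28 days. Saline is the only treatment named for the saline mice. AngII was given at 500 ng per kg per min, and the AngII+ETH mice received that dose of AngII with ETH at 10 mg per kg per day. No group received ETH without AngII, so an effect of ETH alone is not measured. Ages, sex and the part of the heart that was taken are not among the sample details used here. Whether every library is a different mouse is not stated either, and the p-values therefore describe the spread of these samples alone.

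AngII is the peptide hormone of the renin-angiotensin system that constricts arteries and acts on heart muscle and fibroblasts through the type 1 angiotensin receptor. Sustained infusion is used in mice to raise blood pressure, enlarge cardiac myocytes, re-express fetal heart genes and deposit matrix. ETH is a benzophenanthridine alkaloid related to sanguinarine. A heart burns mainly fatty acids, and the genes that set the balance of fat against glucose are driven by PPAR receptors, glucocorticoids and the fed or fasted state.

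Levels are FPKM, which counts sequenced fragments relative to transcript length and library size. The unit was inferred from the values, and levels were summed over the named transcripts of a gene. The libraries stood apart in chamber and fat markers before any comparison. The atrial light chain Myl7 was listed at 0 in 1 library of each group, which were replicate 5 of saline, replicate 3 of AngII and replicate 4 of AngII+ETH. The ventricular light chain Myl2 was low in 1 saline library (3.77 FPKM, replicate 6) and 1 AngII library (3.37 FPKM, replicate 5). The adipocyte hormone Adipoq was 105 and 168 FPKM in saline replicates 4 and 6. The cardiomyocyte markers Myh6, Tnnt2, Actc1 and Ttn summed to between 2421 and 9317 FPKM in the 12 libraries compared, so heart muscle was present in all of them. The lowest, median and highest sums were 2421, 5312 and 7903 FPKM in saline and 3076, 7090 and 9317 in AngII+ETH. The chamber marker level, the mean log2(FPKM + 1) of 4 atrial genes minus that of 4 ventricular genes, was 0.54 ± 5.16 (SD, n = 6) in saline and -2.0 ± 4.0 in AngII+ETH. The difference of -2.54 had an exact two-sided permutation p = 0.361. The adipocyte marker level was 3.95 ± 2.63 in saline and 2.20 ± 1.47 in AngII+ETH (difference -1.75, exact two-sided permutation p = 0.197). Over both tests the adjusted p was 0.361 for each. Without saline replicate 5 the chamber difference was -4.54 (exact permutation p = 0.0216) and the adipocyte difference -2.52 (p = 0.0498). All AngII+ETH files also hold another transcript list than the saline files, so processing and treatment cannot be told apart. In bulk tissue, fewer cells of a type and less RNA per cell cannot be told apart either.

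**Figure D1:**
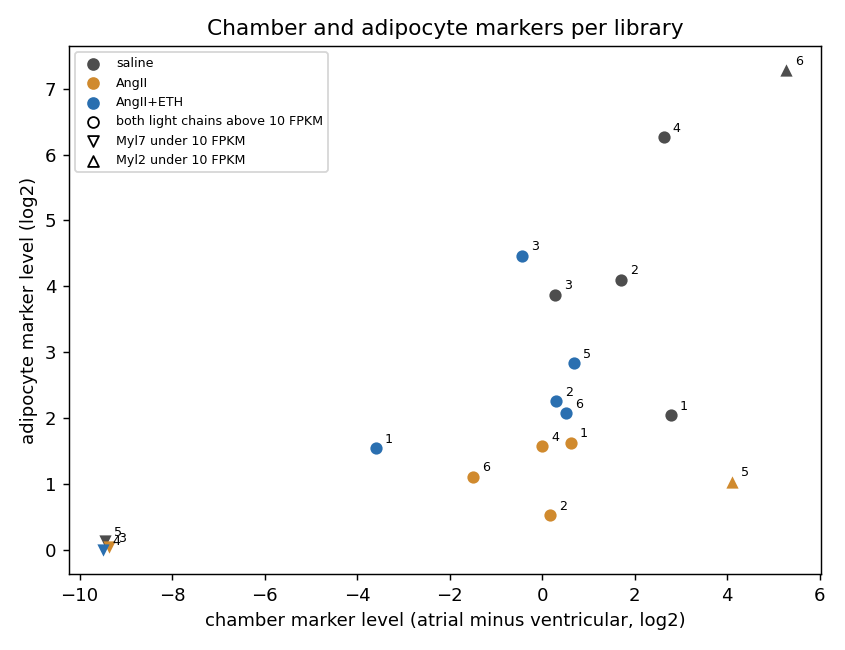
The horizontal axis is the chamber marker level (atrial minus ventricular, log2) and the vertical axis the adipocyte marker level (mean log2 of FPKM + 1). Each point is 1 library, numbered by replicate and coloured by group, and triangles mark libraries with Myl7 (pointing down) or Myl2 (pointing up) under 10 FPKM. Saline replicate 5 sits at a chamber level of -9.44, far from the other saline libraries.

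Angptl4 was the gene that fell. It encodes a secreted inhibitor of lipoprotein lipase, and its transcription is switched on by fatty acids through PPAR receptors, by glucocorticoids and by fasting. It was 9.77, 7.04, 4.23, 27.9, 7.90 and 34.9 FPKM in saline replicates 1 to 6. In AngII+ETH it was 0.780, 1.81, 0.931, 1.04, 0.631 and 1.35 FPKM. The lowest saline library was above the highest AngII+ETH library, and both saline libraries above 20 FPKM were those with high Adipoq. The means were 15.3 ± 12.8 and 1.09 ± 0.428 FPKM (SD, n = 6 each), a log2 fold change (log2FC) of -2.63 (SE 0.37, 95% interval -3.41 to -1.85, limma adjusted p = 0.0175). In the AngII group, which shares the saline controls, Angptl4 was 1.37 FPKM, and AngII+ETH minus AngII was -0.17 (95% interval -0.95 to 0.61).

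Without saline replicates 4 and 6 the log2 fold change of Angptl4 was -1.96 (limma adjusted p = 0.00103), and with a chamber marker covariate it was -2.50 (0.0416). The call ended with only the 12 libraries of the comparison in the fit (-2.63, limma adjusted p = 0.197), with both marker levels as covariates (-2.27, 0.0680) and without the 5 libraries low in Myl7 or Myl2 (-2.38, 0.117). It also ended without any 1 of AngII+ETH replicates 1, 3, 4, 5 or 6 (-2.56 to -2.66, limma adjusted p = 0.0506 to 0.0777). A transcript of Angptl4 is listed in the saline and AngII files only and was left out of its sum in every group.

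Of 11703 genes tested, 1 passed a Benjamini-Hochberg adjusted limma p of 0.05, Angptl4, which is 0.00854% of the genes in the lower direction and 0% in the higher. At an unadjusted p under 0.05, 410 genes were higher (3.50%) and 469 lower (4.01%). In 42 genes (0.359%) every AngII+ETH library lay above every saline library, and in 29 (0.248%) every one lay below. All other genes are therefore given as values that did not pass over all genes, and fold changes are differences of log2(FPKM + 1), which understate changes of low genes.

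**Figure D2:**
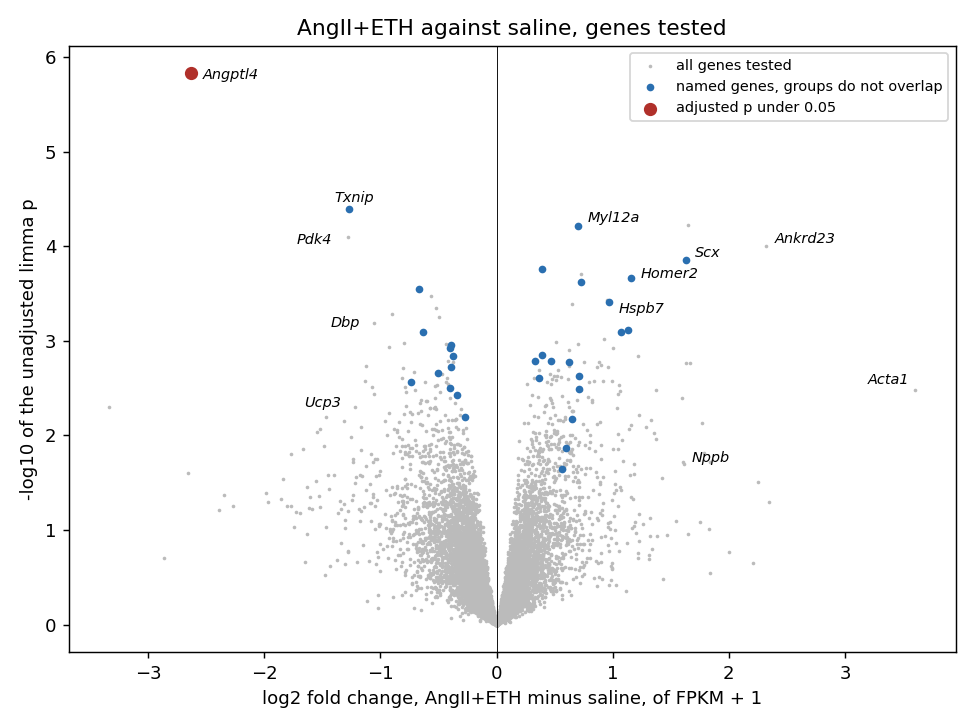
Each point is 1 of the 11703 genes tested, with the log2 fold change of AngII+ETH minus saline (of FPKM + 1) on the horizontal axis and -log10 of the unadjusted limma p on the vertical axis. Blue points are named genes whose groups do not overlap, and the red point is Angptl4 at -2.63, the gene past the adjusted threshold.

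After Angptl4, Txnip and Pdk4 had the smallest p-values on the lower side. Txnip encodes a thioredoxin-binding protein that restrains glucose uptake and is transcribed when cellular glucose is high. Its lowest, median and highest levels were 212, 328 and 430 FPKM in saline and 95.4, 120 and 210 FPKM in AngII+ETH. The groups did not overlap, although the closest libraries were 212 and 210 FPKM. Its means were 327 ± 75.9 and 136 ± 41.3 FPKM, a log2 fold change of -1.27 (SE 0.24, adjusted p = 0.178 by limma). With covariates for the chamber and adipocyte markers Txnip was at -1.34 with a limma adjusted p = 0.0272, the single gene past the threshold in that fit.

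Pdk4, a kinase that switches off pyruvate dehydrogenase and so spares glucose, was at 74.8, 142 and 190 FPKM in saline (lowest, median, highest) and at 37.3, 57.4 and 74.9 in AngII+ETH. The groups touched at 1 library of each. Its log2 fold change was -1.28 (SE 0.25, adjusted p = 0.186 by limma). Pdp2, a phosphatase that switches the same enzyme on, was 6.34 ± 1.62 FPKM in saline and 3.36 ± 0.728 in AngII+ETH (log2FC -0.74, SE 0.21), without overlap. Pdk4 and Pdp2 therefore both had lower means in AngII+ETH, and other kinases and phosphatases of this enzyme are not described here. Ucp3, a mitochondrial carrier of muscle that follows fatty acid supply, was at 10.3, 15.7 and 23.1 FPKM in saline and at 2.11, 7.81 and 11.1 in AngII+ETH (-1.22, SE 0.38, adjusted p = 0.461 by limma).

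Across the wider pathway the differences were small. Of 26 tested PPAR target and lipid supply genes, 10 were higher and 16 lower, against 43.7% and 56.3% of all genes tested, and the median log2 fold change was -0.12, against -0.03 over all genes. Of these 26, 5 had an unadjusted p under 0.05 on the lower side (4.01% of all genes did) and 0 on the higher. The 20 fatty acid oxidation enzymes had 16 lower and 4 higher means, a median of -0.12 and 0 at an unadjusted p under 0.05. Without the 5 libraries low in Myl7 or Myl2, 9 of the 20 were higher and their median was -0.02. Oxidative phosphorylation subunits had a median of 0.02, with 19 of 30 higher. With the chamber covariate 6 of the 30 were higher (median -0.08), and after quantile normalization 10 were (median -0.04). Of 22 genes of glycolysis and glucose uptake, 16 were lower (median -0.14). Their largest differences, in the enzymes Eno1 (-1.24, SE 0.57) and Pfkfb3 (-1.40, SE 0.57), came with the fat-rich libraries: Eno1 was 317 and 673 FPKM in saline replicates 4 and 6 and 33.9 to 81.4 in the other saline libraries, against 26.1 to 52.0 in AngII+ETH. Without saline replicates 4 and 6 Eno1 was at -0.17 and Pfkfb3 at -0.43.

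Klf10, a zinc finger repressor induced by glucose and TGF-beta, was 11.1 ± 2.86 FPKM in saline and 5.41 ± 0.992 in AngII+ETH (log2FC -0.90, SE 0.21, adjusted p = 0.337 by limma). Without the 5 libraries low in Myl7 or Myl2 it was at -1.02 with a limma adjusted p = 0.00632. Its relative Klf11 was 5.28 ± 1.08 and 3.06 ± 0.710 FPKM (-0.63, SE 0.16), without overlap. Opa1, the dynamin-like GTPase that fuses inner mitochondrial membranes, was 19.0 ± 3.76 and 11.5 ± 1.79 FPKM (-0.67, SE 0.15, adjusted p = 0.277 by limma), also without overlap. Other genes without overlap on this side had smaller differences. They were Mut, the mitochondrial methylmalonyl-CoA mutase (-0.51), Adrb1, the beta-1 adrenergic receptor of myocytes (-0.40), Paqr9, a membrane progestin receptor (-0.40), Gpr155 (-0.39), Ttc30b, a protein of intraflagellar transport (-0.39), Slc41a1, a magnesium transporter (-0.34), and Prkce, a protein kinase C (-0.27). The 12 named genes on this side other than Angptl4 had limma adjusted p-values of 0.178 to 0.490.

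**Figure D3:**
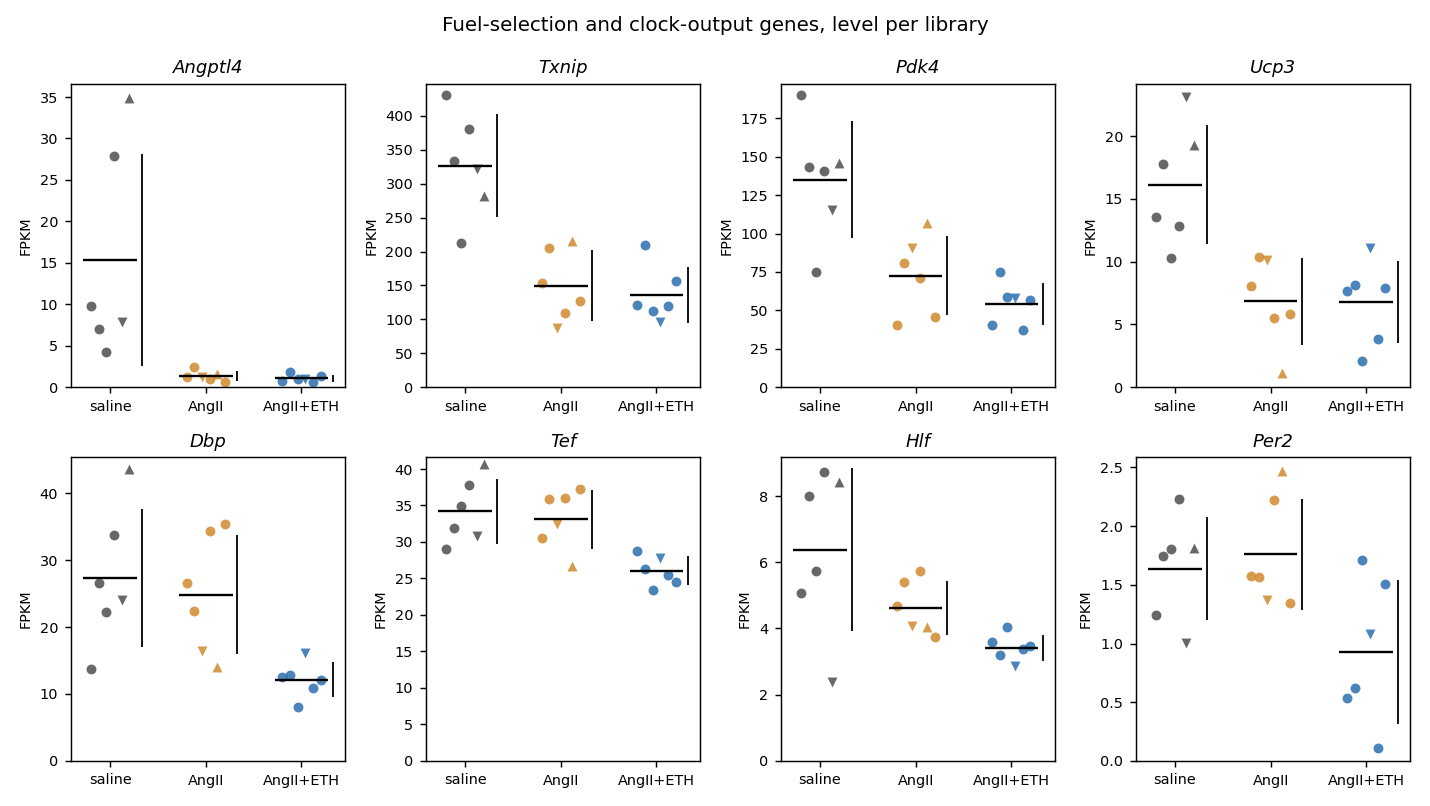
Each panel is 1 gene, with FPKM on the vertical axis and the saline, AngII and AngII+ETH libraries (6 each) as points. Triangles mark libraries with Myl7 (down) or Myl2 (up) under 10 FPKM, horizontal lines are means and vertical bars are ± 1 SD, cut at 0. Angptl4, Txnip, Pdk4 and Ucp3 were low in both AngII groups, whereas Dbp, Tef and Per2 had their lower means in AngII+ETH.

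Several clock genes had lower means in AngII+ETH. Cells keep time by a loop in which CLOCK and BMAL1 bind E-boxes and drive the Per and Cry repressors, and Dbp, Tef and Hlf are the PAR bZIP factors that pass the rhythm on to D-box genes. Dbp was 13.8, 26.6, 22.2, 33.8, 24.1 and 43.6 FPKM in saline replicates 1 to 6 and 12.6, 12.8, 8.04, 16.1, 11 and 12.2 in AngII+ETH. The groups overlapped through saline replicate 1, and 5 of 6 saline libraries were above every AngII+ETH library. The log2 fold change was -1.06 (SE 0.26, 95% interval -1.59 to -0.52, limma adjusted p = 0.383). Tef was at 29.1, 33.4 and 40.7 FPKM in saline (lowest, median, highest) and at 23.5, 25.9 and 28.7 in AngII+ETH, without overlap (-0.37, SE 0.10, adjusted p = 0.406 by limma). Hlf was 6.38 ± 2.46 and 3.42 ± 0.399 FPKM (-0.66, SE 0.20), with saline replicate 5 at 2.38 and below every AngII+ETH library. Without saline replicate 5 Hlf was at -0.87 with a limma adjusted p = 0.0265, and of 25 other fits it passed in that 1 alone. With chamber and adipocyte covariates Hlf was at -0.37 (limma adjusted p = 0.587). Without the fat-rich saline replicates 4 and 6 it was at -0.43 (limma adjusted p = 0.832), Dbp at -0.78 and Tef at -0.27.

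Of the repressors, Per2 was 1.64 ± 0.442 FPKM in saline and 0.926 ± 0.615 in AngII+ETH (log2FC -0.50, SE 0.20), Cry2 9.49 ± 1.47 and 7.41 ± 0.458 (-0.31, SE 0.10) and Nr1d1, which encodes REV-ERB alpha, 42.9 ± 11.7 and 30.9 ± 5.35 (-0.43, SE 0.17). Of 18 tested clock genes, 12 were lower (56.3% of all genes were) and 6 higher, with a median log2 fold change of -0.12, and 7 had an unadjusted p under 0.05 on the lower side (4.01% of all genes did) and 0 on the higher. Without saline replicates 4 and 6 the list median was -0.16, while Per2 was at -0.40, Cry2 at -0.21 and Nr1d1 at -0.23. In the AngII libraries Dbp was 24.8 ± 8.93 FPKM and Tef 33.1 ± 4.03, next to their saline levels. Set directly against AngII, AngII+ETH was at -0.93 for Dbp (95% interval -1.47 to -0.39), -0.33 for Tef (-0.54 to -0.12) and -0.57 for Per2 (-0.98 to -0.15). For Hlf it was at -0.34 (-0.77 to 0.09), for Nr1d1 at -0.33 (-0.69 to 0.03) and for Cry2 at -0.08 (-0.28 to 0.12), intervals that include 0. In AngII minus saline Hlf was at -0.32 and Cry2 at -0.23. In AngII+ETH minus AngII, 0 of 11703 genes passed the adjusted limma threshold, so none of the differences given against AngII did. At an unadjusted limma p under 0.05, 148 genes were higher (1.26%) and 76 lower (0.649%) in AngII+ETH than in AngII. The hour at which hearts were taken is not among the details used here, so its part in the clock values was not tested.

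Promoters were examined for 9 of the fuel and clock genes described above (Txnip, Pdk4, Pdp2, Ucp3, Dbp, Tef, Hlf, Cry2 and Nr1d1). Those of Tef, Pdp2 and Txnip are shown because, of these 9, they had both a motif match in the window and groups that did not overlap. The windows are 300 bases around a RefSeq start in build GRCm38.p6, on the plus strand of chr15:81802423-81802722 and chr15:81811164-81811463 (2 starts of Tef), chr8:104591222-104591521 (Pdp2) and chr3:96557707-96558006 (Txnip). Capitals mark the E-box CACGTG in Tef and Pdp2 and the FoxO motif GTAAACA in Txnip.
Tef start 1: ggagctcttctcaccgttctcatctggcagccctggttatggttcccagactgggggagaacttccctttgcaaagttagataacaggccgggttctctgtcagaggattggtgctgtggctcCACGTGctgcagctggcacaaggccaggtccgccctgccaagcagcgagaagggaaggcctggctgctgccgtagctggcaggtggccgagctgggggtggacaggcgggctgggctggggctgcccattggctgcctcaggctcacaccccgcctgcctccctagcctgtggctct
Tef start 2: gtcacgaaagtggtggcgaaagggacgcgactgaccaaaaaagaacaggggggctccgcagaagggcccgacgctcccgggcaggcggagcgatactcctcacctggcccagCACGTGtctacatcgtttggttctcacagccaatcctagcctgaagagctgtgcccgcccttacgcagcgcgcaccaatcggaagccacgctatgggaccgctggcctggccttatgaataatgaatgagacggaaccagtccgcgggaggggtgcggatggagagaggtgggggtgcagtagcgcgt
Pdp2: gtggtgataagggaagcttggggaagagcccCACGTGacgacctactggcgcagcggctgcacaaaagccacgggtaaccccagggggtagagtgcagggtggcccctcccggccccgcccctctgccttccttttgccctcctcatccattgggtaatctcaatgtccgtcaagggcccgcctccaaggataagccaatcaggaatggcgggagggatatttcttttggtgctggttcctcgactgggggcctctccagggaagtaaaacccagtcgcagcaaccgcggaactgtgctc
Txnip: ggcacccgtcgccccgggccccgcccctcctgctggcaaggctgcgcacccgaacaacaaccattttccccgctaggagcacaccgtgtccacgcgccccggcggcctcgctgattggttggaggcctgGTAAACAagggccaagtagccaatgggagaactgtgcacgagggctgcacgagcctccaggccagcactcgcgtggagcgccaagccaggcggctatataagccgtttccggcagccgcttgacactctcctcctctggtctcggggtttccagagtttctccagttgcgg
The E-box was found in 7.15% of 32851 RefSeq promoter windows of this length and the FoxO motif in 3.65%, both strands searched. Of the 20 clock genes, 17 had windows, 22 windows in all, and 5 of these genes held an E-box (Bhlhe41, Ciart, Cry1, Per1 and Tef). The list counts are of genes, some with several windows, whereas the percentages are of windows, so they are not directly comparable. A D-box (TTATGTAA or TTACGTAA, 1.06% of windows) was found in Per3 and in no other clock gene. Of 23 PPAR target and lipid supply genes with windows, 0 held the DR1 motif of PPAR receptors (an exact direct repeat with a spacer of 1 base), which was found in 0.0396% of all windows. A match describes letters in these windows and shows no binding.

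On the higher side, genes of the myocyte's stress response and contractile lattice were among those with the largest differences. Ankrd23, a titin-binding ankyrin repeat protein of the I-band, was 29.6, 34.0, 25.3, 11.8, 76.9 and 5.99 FPKM in saline replicates 1 to 6 and 126, 125, 122, 70.4, 181 and 119 in AngII+ETH. The groups overlapped only between saline replicate 5 and AngII+ETH replicate 4, the libraries in which Myl7 was listed at 0. Its means were 30.6 ± 25.1 and 124 ± 34.9 FPKM (log2FC 2.32, SE 0.47, 95% interval 1.34 to 3.30, limma adjusted p = 0.195). Without the 5 libraries low in Myl7 or Myl2 it was at 2.45 with a limma adjusted p = 0.00632, and without saline replicates 4 and 6 at 1.65 (0.610). Ankrd23 was at 2.18 in AngII minus saline, which shares the saline libraries. Acta1, the skeletal muscle actin re-expressed in loaded hearts, was at 1.15, 28.8 and 216 FPKM in saline and 77.2, 344 and 612 in AngII+ETH (3.60, SE 1.06, adjusted p = 0.417 by limma). It spread widely within both groups. Reads shared with the near-identical cardiac actin make its level uncertain.

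Nppb, the gene of brain natriuretic peptide, was at 74.7, 104 and 220 FPKM in saline and 126, 318 and 1482 in AngII+ETH (log2FC 1.60, SE 0.62, adjusted p = 0.539 by limma). Nppa, the atrial peptide gene, was at 157, 10030 and 14120 FPKM in saline and 236, 8993 and 25670 in AngII+ETH. Its lowest values were in the libraries where Myl7 was listed at 0. Its log2 fold change was -0.32 (SE 1.33), and 1.00 (SE 0.45, adjusted p = 0.548 by limma) with the chamber covariate. Myh7, the slow myosin heavy chain, was 19.8 ± 9.91 and 19.9 ± 10.1 FPKM (0.02, 95% interval -1.06 to 1.11), and Myh6, its adult partner with which it shares near-identical stretches, 484 ± 435 and 687 ± 668 (0.51, SE 0.58). Rcan1, a calcineurin regulator that calcineurin itself induces, was 34.2 ± 7.07 and 57 ± 15.1 FPKM (0.71, SE 0.21), without overlap. Of 30 tested calcineurin, phospholipase C and kinase signalling genes, which include Rcan1, 15 were higher and 15 lower (median -0.01). At an unadjusted limma p under 0.05, 1 of these 30 was higher (3.50% of all genes) and 3 lower (4.01%). The lower ones were Prkce (-0.27, SE 0.09), Ppp3cb (-0.27, SE 0.10) and Map2k3 (-1.17, SE 0.48). Of 20 tested hypertrophy and fetal genes, 19 were higher (43.7% of all genes were), 7 of them at an unadjusted p under 0.05 (3.50% of all genes), with a median of 0.70. The same list had a median of 0.69 in AngII minus saline, which shares the saline libraries.

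**Figure D4:**
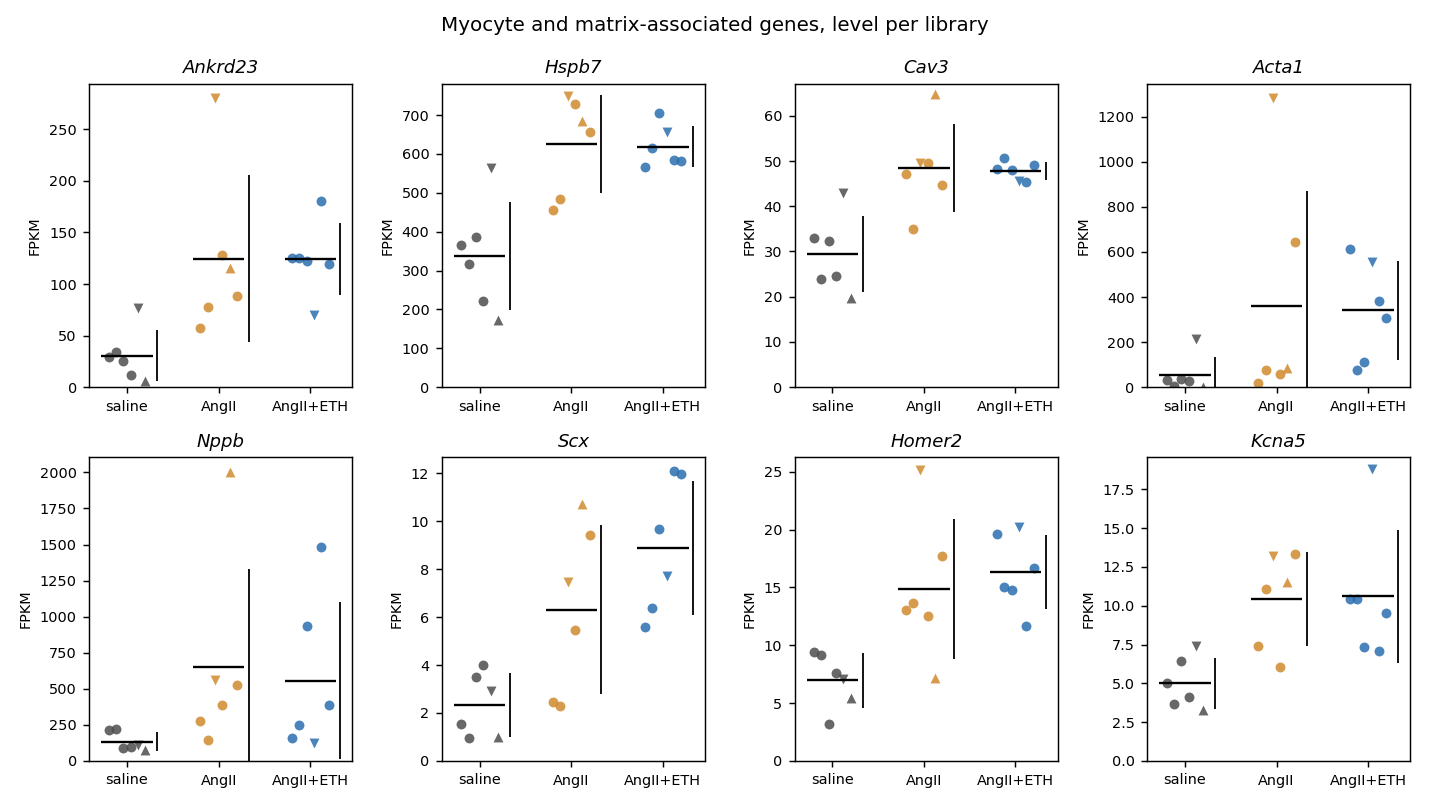
Each panel is 1 gene, with FPKM on the vertical axis and the saline, AngII and AngII+ETH libraries (6 each) as points. Triangles mark libraries with Myl7 (down) or Myl2 (up) under 10 FPKM, horizontal lines are means and vertical bars are ± 1 SD, cut at 0. Hspb7, Cav3, Scx and Homer2 had no AngII+ETH library at or below a saline library.

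Hspb7, a small heat shock protein that binds filamin at the Z-disc, was 338 ± 138 FPKM in saline and 619 ± 53.5 in AngII+ETH (log2FC 0.97, SE 0.22, adjusted p = 0.298 by limma). Its highest saline library, replicate 5 with 565 FPKM, lay just under the lowest AngII+ETH library with 567. Cav3, the caveolin of muscle, was 29.4 ± 8.42 and 47.8 ± 2.03 FPKM (0.73, SE 0.16, adjusted p = 0.256 by limma), so the AngII+ETH libraries spread less than the saline ones. Its partner Cavin4, which shapes muscle caveolae, was 17.4 ± 11.2 and 35.7 ± 5.96 FPKM (1.22, SE 0.32). Popdc3, a cAMP-binding membrane protein of muscle, was 6.31 ± 1.90 and 9.91 ± 0.964 (0.62, SE 0.17). Without saline replicate 5, Ankrd23 (2.66), Hspb7 (1.14), Cav3 (0.84) and Myl12a (0.78) each passed, with limma adjusted p-values of 0.0265, 0.0326, 0.0326 and 0.0299. Without that library the chamber marker level also differed between the groups (-4.54, exact permutation p = 0.0216). Without saline replicates 4 and 6, Hspb7 was at 0.63, Cav3 at 0.55, Cavin4 at 0.67 and Popdc3 at 0.36. With chamber and adipocyte covariates they were at 0.70, 0.55, 0.77 and 0.44. None of these 4 genes passed in either fit. In AngII minus saline Hspb7 was at 0.97, Cav3 at 0.72, Cavin4 at 1.23 and Popdc3 at 0.74.

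Of 35 sarcomere and Z-disc genes, 31 were higher (43.7% of all genes were), 16 of them at an unadjusted p under 0.05 (3.50% of all genes), with a median of 0.51. In AngII minus saline, which shares the saline libraries, 31 of the 35 were higher (4587 of all 11703 genes were), with a median of 0.55. The median of this list was -0.01 in AngII+ETH minus AngII. Des, the muscle intermediate filament, was 261 ± 104 and 458 ± 77.5 FPKM (log2FC 0.88, SE 0.24), Nrap, which anchors growing myofibrils, 22.2 ± 9.73 and 39.4 ± 7.12 (0.90, SE 0.25), and Myot, a Z-disc protein, 0.773 ± 0.854 and 4.51 ± 3.26 (1.60, SE 0.48). Mybpc2, the fast muscle myosin binding protein, was 1.89 ± 0.826 and 4.96 ± 1.14 FPKM (1.07, SE 0.27), without overlap. Skeletal muscle markers, a list that holds Acta1 and Mybpc2, had 6 of 7 higher with a median of 0.64. Among them Tnnt3, the fast skeletal troponin T, reached 0.578 FPKM in saline and 10.9 in AngII+ETH, with medians of 0.203 and 0.322. Casq1, the skeletal calsequestrin, reached 4.14 and 13.9 FPKM. Ventricular chamber markers had 11 of 14 higher with a median of 0.32, and -0.0049 with chamber and adipocyte covariates. The part of these markers in the sarcomere values was not tested. The median of the sarcomere list was 0.25 without the fat-rich saline replicates 4 and 6 and 0.26 with chamber and adipocyte covariates. The medians of the hypertrophy list in these fits were 0.68 and 0.83. Smaller differences were seen among calcium handling genes, 13 of 17 higher with a median of 0.15, and of 0.26 in AngII minus saline. They included Jph2, which ties the T-tubule to the calcium store (0.51, SE 0.19), the calcium buffer Casq2 (0.45, SE 0.16), the calcium channel subunit Cacna2d1 (0.40, SE 0.15) and S100a1, a calcium sensor of the store (0.39, SE 0.15). Atp2a2, the pump that refills the store, was 2839 ± 791 and 2804 ± 342 FPKM (0.03, 95% interval -0.37 to 0.42). Of 17 ion channel and connexin genes, 7 were higher and 10 lower (median -0.07). At an unadjusted limma p under 0.05, 2 of these 17 were higher (3.50% of all genes) and 0 lower (4.01%). The higher ones were Kcna5, a repolarising potassium channel, at 5.0 ± 1.64 and 10.6 ± 4.27 FPKM (0.93, SE 0.23), and the connexin gene Gjc1 (0.44, SE 0.16). On the lower side Kcnj3, also in the atrial chamber list, was at -1.01 (SE 0.57), and at -0.47 with the chamber covariate.

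Heat shock and protein turnover genes of muscle accompanied these. Of 25 heat shock and co-chaperone genes, 19 were higher (43.7% of all genes were), 7 at an unadjusted p under 0.05 (3.50% of all genes), with a median of 0.13. In AngII minus saline the median of this list was 0.34. Hspb1 was 161 ± 21.9 and 295 ± 102 FPKM (log2FC 0.81, SE 0.28), the co-chaperone Dnajb5 9.92 ± 1.35 and 16.3 ± 3.80 (0.65, SE 0.21) and Bag3, which steers damaged filamin to autophagy, 52.0 ± 12.2 and 70.0 ± 10.6 (0.44, SE 0.15). Of the muscle ubiquitin ligases, Fbxo40 (0.87, SE 0.29) and Trim54 (0.63, SE 0.20) were on the higher side, and Fbxo32, the FoxO target atrogin-1, on the lower (-0.34, SE 0.12). Of 22 tested glucocorticoid response genes, which include Angptl4 and Pdk4, 10 were higher and 12 lower (median -0.05). On the higher side were Cdkn1a, a cell cycle inhibitor, at 11.7 ± 4.67 and 20.4 ± 3.69 FPKM (0.82, SE 0.25) and Ddit4, an mTOR inhibitor, at 11.3 ± 2.80 and 23.0 ± 11.7 (0.89, SE 0.29).

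Other genes without overlap on the higher side were of mixed function. Myl12a, a regulatory light chain of non-muscle myosin, was at 174, 210 and 282 FPKM in saline and 292, 335 and 431 in AngII+ETH (log2FC 0.70, SE 0.13, adjusted p = 0.178 by limma), a gene with a near-identical neighbour copy. Homer2, a scaffold of calcium signalling, was 6.99 ± 2.38 and 16.3 ± 3.21 FPKM (1.16, SE 0.25, adjusted p = 0.253 by limma). Myl12a and Homer2 each have a transcript that is not in both transcript lists and was left out of the sum in every group. In AngII minus saline Myl12a was at 0.77 and Homer2 at 0.97. Fyn, a Src family kinase, was 9.85 ± 1.11 and 13.2 ± 0.669 (0.39, SE 0.08). The others were Frmd5 (1.13), the nuclear import factor Kpna2 (0.47), Abtb2 (0.39) and Spsb3, a substrate receptor of a ubiquitin ligase (0.33). The 18 named genes on this side had limma adjusted p-values of 0.178 to 0.563.

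Matrix and fibroblast genes were on the higher side without a member past the threshold. Scx, a transcription factor that drives tendon and collagen genes, was 1.55, 0.948, 3.52, 4.0, 2.93 and 0.978 FPKM in saline replicates 1 to 6 and 5.58, 6.37, 9.67, 7.73, 12.1 and 12 in AngII+ETH. The groups did not overlap (log2FC 1.63, SE 0.34, 95% interval 0.92 to 2.34, limma adjusted p = 0.235), and the value without saline replicates 4 and 6 was 1.64. AngII libraries were at 6.31 ± 3.53 FPKM. Of 34 tested collagen and fibrillar matrix genes, 29 were higher (43.7% of all genes were), 7 at an unadjusted p under 0.05 (3.50% of all genes), with a median of 0.42. Col4a2 and Col4a1, the chains of basement membrane collagen, were 47.3 ± 8.46 and 77.8 ± 13.7 FPKM (0.71, SE 0.20) and 68.2 ± 11.6 and 104 ± 20.5 FPKM (0.60, SE 0.22), both without overlap.

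Fibrillar collagens overlapped widely. Col1a1 was at 24.9, 69.7 and 120 FPKM in saline and 27.1, 114 and 167 in AngII+ETH (log2FC 0.42, 95% interval -0.57 to 1.42), and Col3a1 was at 0.14 (-0.80 to 1.08). The lowest value of both genes in each group was in saline replicate 5 and AngII+ETH replicate 4, the libraries in which Myl7 was listed at 0. Postn, a matricellular protein of activated fibroblasts, was 37.3 ± 27.5 and 57.5 ± 46.9 FPKM (0.37, -1.09 to 1.84). Of 20 activated fibroblast genes, 18 were higher (43.7% of all genes were) with a median of 0.54, 2 of them at an unadjusted limma p under 0.05 (3.50% of all genes). Among them were Thbs4, a thrombospondin, at 3.47 ± 1.96 and 21.6 ± 21.6 FPKM (1.84, SE 0.71) and the cartilage intermediate layer protein Cilp at 9.77 ± 4.05 and 41.8 ± 35.4 (1.61, SE 0.63). Prelp, a proteoglycan that binds collagen, was 29.8 ± 20.2 and 91.3 ± 59.0 FPKM (1.79, SE 0.66). Loxl2, which crosslinks collagen, was 5.91 ± 1.20 FPKM in saline, 9.14 ± 3.19 in AngII+ETH and 4.31 ± 0.877 in AngII, at 0.50 against saline (SE 0.20) and 0.88 against AngII (95% interval 0.47 to 1.3). The collagen list had a median of -0.15 in AngII minus saline and 0.49 in AngII+ETH minus AngII, and the activated fibroblast list 0.09 and 0.50. The summed markers Pdgfra, Tcf21, Dcn and Col1a1 of fibroblasts ranged from 272.5 to 924.5 FPKM in saline and from 337 to 1348 in AngII+ETH, and their part in these differences was not tested.

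The angiotensin system itself showed little. Agtr1a, the type 1 receptor, was 10.9 ± 4.71 FPKM in saline and 10.7 ± 3.20 in AngII+ETH (log2FC 0.01, 95% interval -0.72 to 0.73), and Ace, the converting enzyme, 20.3 ± 11.6 and 31.5 ± 15.7 (0.65, -0.25 to 1.54). Of the 7 tested genes 2 were higher (43.7% of all genes were). Ccn2, a matrix gene induced by AngII and TGF-beta, was 79.3 ± 29.2 and 316 ± 375 FPKM (1.00, -0.78 to 2.77), and Ankrd1, another titin-binding stress gene, 372 ± 170 and 1001 ± 934 (0.86, -0.53 to 2.25).

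Sanguinarine-type alkaloids have been described as acting on kinases and phosphatases. Of 26 tested genes of the AMPK, mTOR and PP2A complexes, 20 were lower (56.3% of all genes were) and 6 higher, with a median of -0.09. At an unadjusted limma p under 0.05, 2 of them were lower (4.01% of all genes) and 0 higher. The AMPK beta subunit Prkab1 was 20.6 ± 1.99 and 16.3 ± 3.37 FPKM (log2FC -0.34, SE 0.14), and the PP2A subunit Ppp2r5a was at -0.61 (SE 0.28), at 116 and 197 FPKM in the fat-rich saline replicates 4 and 6, 41.4 to 51.5 in the other saline libraries and 42.8 to 48.2 in AngII+ETH. Without saline replicates 4 and 6 Ppp2r5a was at -0.056. Of 36 NRF2, AhR and xenobiotic response genes, 30 were lower (56.3% of all genes were) and 6 higher (median -0.17). At an unadjusted limma p under 0.05, 2 were lower (4.01% of all genes) and 1 higher (3.50%). The lower ones included the carboxylesterase Ces1d (-0.81, SE 0.32) and the glutathione transferase Gstp1 (-0.32, SE 0.14), both with close paralogs. Without saline replicates 4 and 6 the list median was -0.04 and Ces1d was at -0.36. Abcb1a, the drug efflux pump P-glycoprotein, was 0.507 ± 0.283 FPKM in saline, 1.15 ± 0.509 in AngII+ETH (0.50, SE 0.18) and at 0.62 against AngII (95% interval 0.24 to 1.00). Detoxification genes as a group thus had no higher median in AngII+ETH.

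Among immune genes the fractalkine pair stood on the higher side. Cx3cr1, the fractalkine receptor of macrophages, was at 0, 0.840 and 1.47 FPKM in saline and 1.20, 1.93 and 4.20 in AngII+ETH (log2FC 0.84, SE 0.24, adjusted p = 0.406 by limma), and 0.80 against AngII (95% interval 0.29 to 1.3). Its ligand Cx3cl1 was 3.62 ± 0.727 and 5.96 ± 2.49 FPKM (0.54, SE 0.21), and the stromal chemokine Cxcl12 was at 0.47 (SE 0.21). Cx3cl1 and Cxcl12 come from 26 tested cytokine, chemokine and adhesion genes, 17 higher and 9 lower (median 0.21). Of these 26, 3 were higher (3.50% of all genes) and 1 lower (4.01%) at an unadjusted limma p under 0.05. Of 27 macrophage and monocyte markers 20 were higher (43.7% of all genes were) and 7 lower, with a median of 0.07. At an unadjusted limma p under 0.05, 2 of these 27 were higher (3.50% of all genes) and 0 lower (4.01%). On the lower side Folr2 was 6.40 ± 3.1 and 4.28 ± 1.93 FPKM (-0.44, SE 0.32). Without the 5 libraries low in Myl7 or Myl2, 12 of the 27 were higher and their median was -0.02. The summed level of Csf1r, Cd68, C1qa and Mrc1 ranged from 66.0 to 156 FPKM in saline and 92.4 to 166 in AngII+ETH. Of 29 interferon response genes 19 were higher (43.7% of all genes were, median 0.12), 4 at an unadjusted p under 0.05 (3.50% of all genes). These were Usp18, an ISG15 protease (0.56, SE 0.23), the interferon regulator Irf7 (0.62, SE 0.26), Oas1a (0.43, SE 0.17), whose family shares sequence, and the antiviral enzyme Rsad2 (0.41, SE 0.17). All lay at a few FPKM.

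Lists of markers of fat, epicardium and mast cells had medians below 0. Of 18 tested adipocyte markers 16 were lower (56.3% of all genes were), with a median of -1.47. An unadjusted p under 0.05 was found for 3 of them, Pck1, Lipe and Cidec (4.01% of all genes on the lower side). Plin1, a lipid droplet coat protein, was at 0, 3.05 and 122 FPKM in saline and 0, 1.05 and 5.0 in AngII+ETH. The fat cell lipase Lipe was at 9.96, 12.7 and 111 FPKM in saline and 4.83, 10.1 and 12.2 in AngII+ETH. Without saline replicates 4 and 6 the median of the list was -0.15, so the size of this median rested on those libraries. All 11 epicardial and mesothelial markers were lower (median -0.75, -0.21 with the chamber covariate and -0.40 without saline replicates 4 and 6). Upk3b, a mesothelial uroplakin, was 29.8 ± 15.8 and 10.3 ± 9.21 FPKM and was under 1 FPKM in saline replicate 5 and AngII+ETH replicate 4. Wt1, the transcription factor of the epicardium, was 2.96 ± 1.26 and 1.45 ± 0.464 FPKM (-0.65, SE 0.20). All 8 mast cell and neutrophil markers were lower as well (median -0.52, -0.15 with chamber and adipocyte covariates and -0.20 without saline replicates 4 and 6), with Hdc, the histamine-forming enzyme, at 1.42 ± 0.480 and 0.672 ± 0.181 FPKM (-0.52, SE 0.15). Atrial chamber markers had 12 of 13 lower (median -0.46, and 0.23 with the chamber covariate). In contrast, vessel-wall genes were mixed, with 10 of 17 smooth muscle and pericyte markers higher, among them Notch3, the receptor of mural cells, at 9.85 ± 1.58 and 12.9 ± 0.915 FPKM (0.36, SE 0.10), without overlap.

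**Figure D5:**
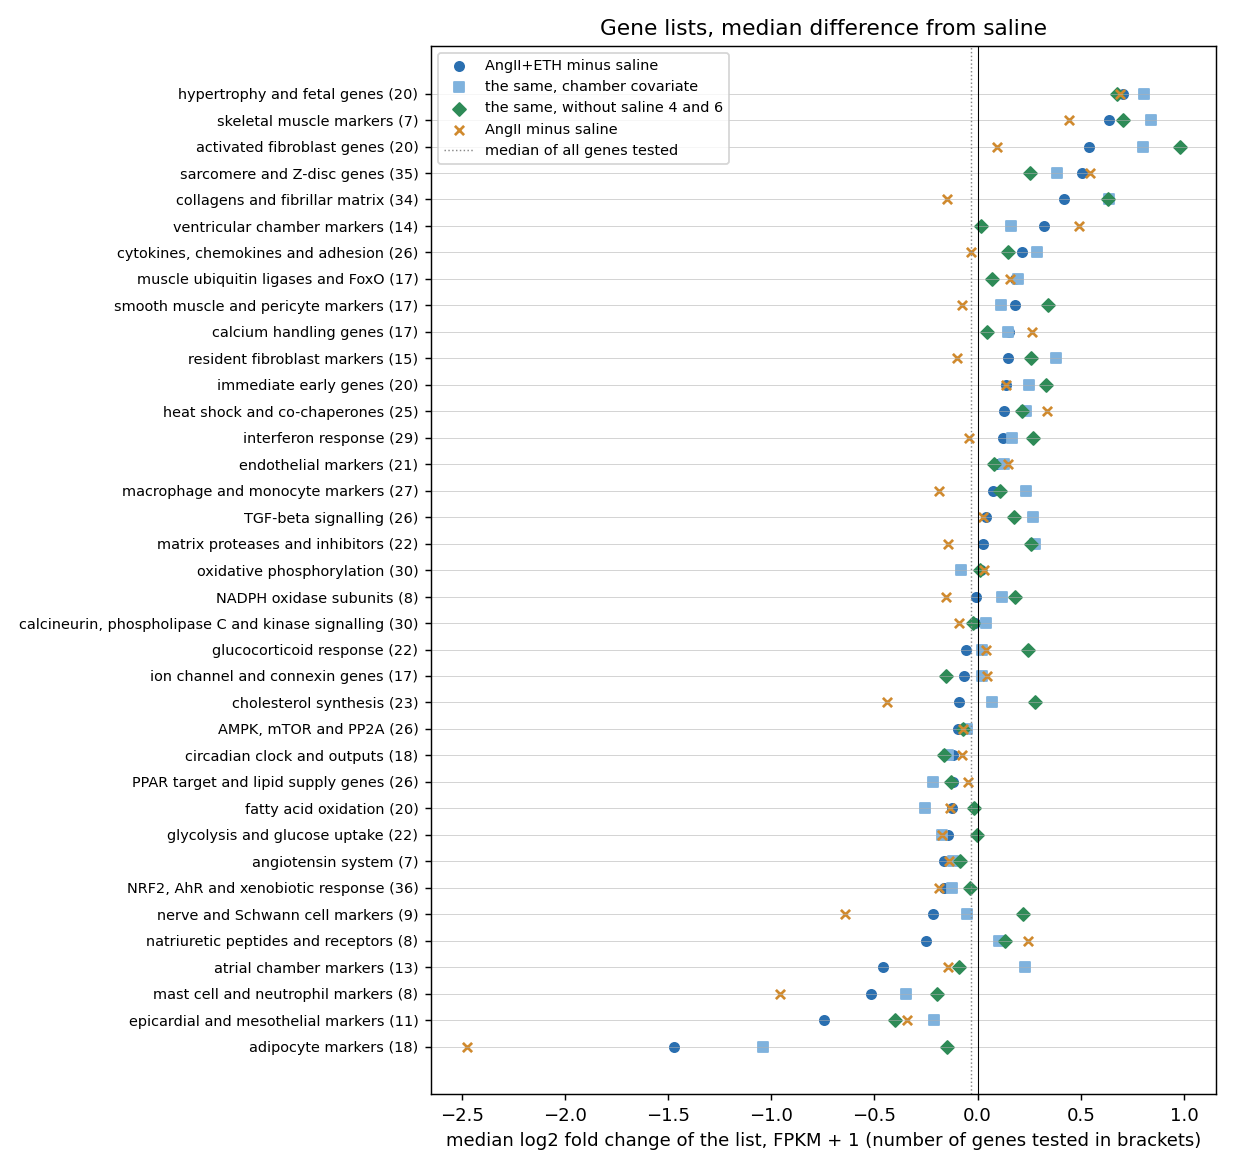
Each row is 1 of the 37 lists with 5 or more tested genes (number tested in brackets), and the horizontal axis is the median log2 fold change of its genes. Circles are AngII+ETH minus saline, squares the same with the chamber covariate, diamonds the same without saline replicates 4 and 6, crosses AngII minus saline, and the dotted line the median of all genes, -0.03. The adipocyte list moves from -1.47 to -0.15 without those libraries, while the hypertrophy list moves from 0.70 to 0.68.

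The 37 lists with 5 or more tested genes had medians from -1.47 (adipocyte) to 0.70 (hypertrophy and fetal), 19 of them above 0. Of these, 7 were above 0.2 and 6 below -0.2. In lists with medians above 0.2 or below -0.2, list members named by smallest p were taken only from those with the sign of the median. Members that went the other way could therefore not be named by that rule. The comparisons AngII+ETH minus saline and AngII minus saline use the same 6 saline libraries, so a saline library that stands apart moves both, and their values are set side by side here as a description.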

How the data were processed

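Libraries of mouse cardiac tissue were prepared from total RNA after ribosomal RNA removal, with an NEB kit that does not mark strand, per the labels' protocols, so overlapping genes on opposite strands cannot be separated. The deposited values are 1 number per transcript and library. They were taken as FPKM computed by the authors, because low values multiplied by transcript length lay near multiples of a step found for each library (32.2 to 55.9% of values of up to 10 fragments within 0.05 of a whole number, with the step chosen to fit) and values weighted by length added up to 63.6 to 74.9% of the FPKM ceiling. By that inference 1 FPKM over 1 kb stood for 63.9 to 80.9 fragments. The genome build, annotation, aligner and assembler were not given in the sources used here, and the submitters' processing notes name limma.

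Files of the saline and AngII groups list 30883 transcripts and the AngII+ETH files 30036, with 28886 in common. Of these, 8239 assembled transcripts without a gene name (10.4 to 15.7% of the common sum) entered no gene sum, which lowers any gene whose reads they took. GENCODE M21 held 20478 of the 20647 Ensembl transcripts, and these gave sums for 12911 genes, of which 1171 have a transcript in 1 list only. Such transcripts were left out of the sums in every group. Besides Angptl4, these genes include Ace, Acvrl1, Cdkn1a, Cidec, Col4a1, Eno1, Homer2, Irf7, Myl12a, Pck1, Pfkfb3, Plin1 and Ppp2r5a. Genes needed a group mean of at least 1 FPKM, which 11703 had. Their log2(FPKM + 1) values entered limma 3.58.1 (R 4.3.3) as 1 model of 3 group means over 18 libraries, with eBayes following the intensity trend and Benjamini-Hochberg adjustment over all genes. Since these values are not counts, count models were not applied. For marker levels all 924 assignments of 12 libraries were enumerated (exact permutation, two-sided, scipy 1.17.1). Tables used Python 3.11.15 and pandas 2.3.3, plots matplotlib 3.10.9. The script was tested on simulated data.

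The members, the 38 gene lists and the named genes were chosen with earlier results of these data known. The rule for named genes took every gene past the threshold and 20 fixed genes. Up to 12 genes in each direction without overlap, whose higher mean is at least 3 FPKM, were added by smallest p. Up to 4 members of each list described were also added by smallest p. In lists with the larger medians, positive or negative, only members with the sign of the median could be added. A gene among the fixed ones is not reported here. Myl7, Myl2 and Adipoq mark the libraries that stand apart, and Dock6 and Cwf19l1 were named after their values were seen. Replicate numbers follow accession order and pair nothing. Promoter sequences are from RefSeq, build GRCm38.p6. The closing section gives the effect of other pseudocounts, filters, scalings, weights, covariates and left-out libraries, of which the fit without saline replicates 4 and 6 was chosen after seeing the data.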

Additional observations from a re-analysis of the deposited data

Results flagged for a closer look

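In groups of 6 libraries, 11 of 198 groups of values had a highest or lowest library far from the others by Dixon's criterion, and chance flags about 1 in 20 groups. Saline replicate 5, where Myl7 was listed at 0, was the lowest saline library for Nppa (157 FPKM), for Upk3b (0.509 FPKM) and for the chamber marker level (-9.44), and the highest for S100a1 (463 FPKM). Saline replicate 6, where Myl2 was low, was the lowest for Prelp (1.37 FPKM) and for Cx3cr1, which was listed at 0 there. Saline replicate 2 was the lowest for Ddit4 (5.89 FPKM) and for Usp18 (0.369 FPKM). AngII+ETH replicate 5 was the highest for Col4a1 (145 FPKM) and Col4a2 (104 FPKM) and the lowest for Agtr1a (5.09 FPKM).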

How the results depend on the processing

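The count of genes past the threshold, 1, stayed at 1 with a pseudocount of 0.1, without the filter, with a group mean of 5 FPKM or more, with median-of-ratios scaling, with quantile normalization, without the intensity trend and with the chamber covariate, each time Angptl4. With chamber and adipocyte covariates it was 1 as well, but Txnip. It was 4 with sample weights (Angptl4, Ankrd23, Myl12a and Dock6), 2 without the 5 libraries low in Myl7 or Myl2 (Ankrd23 and Klf10), 2 without saline replicates 4 and 6 (Angptl4 and Cwf19l1), 0 with only the 12 libraries in the fit and 0 with only genes whose transcripts are in all files, which leaves Angptl4 out. Leaving out 1 library in turn gave 0 to 8 genes, with 8 without saline replicate 5, 2 without saline replicate 2 or 3, and 0 without AngII+ETH replicate 1, 3, 4, 5 or 6. Angptl4 was at -2.63 with only 12 libraries, -2.27 with both covariates and -2.38 without the 5 libraries, no longer past the threshold in these, and at -2.88 to -2.33 with 1 library left out. The chamber marker difference ranged from -4.54 to -1.05 and the adipocyte difference from -2.52 to -1.09 with 1 library left out, both past 0.05 without saline replicate 5.

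Of the genes near 0, 5 changed sign, and none of them passed in any fit. Nppa (-0.32) was at 1.00 with the chamber covariate, 0.91 with both covariates, 0.27 without saline replicates 4 and 6 and -1.31 to 0.49 with 1 library left out. Myh7 (0.02) was at -0.37 with sample weights, -0.21 and -0.28 with the covariates, -0.50 without saline replicates 4 and 6 and -0.34 to 0.30 with 1 left out. Agtr1a (0.01) was at -0.21 and -0.20 with the covariates, -0.069 without the 5 libraries, -0.28 without saline replicates 4 and 6 and -0.15 to 0.18 with 1 left out. Atp2a2 (0.03) was at -0.064 after quantile normalization, -0.068 with sample weights, -0.053 and -0.19 with the covariates, -0.095 without the 5 libraries, -0.25 without saline replicates 4 and 6 and -0.10 to 0.11 with 1 left out. Col3a1 (0.14) was at -0.11 to 0.45 with 1 left out. The cause of these changes was not tested. The median of the glucocorticoid response list (-0.05) was at 0.24 without saline replicates 4 and 6. No paired analysis was possible because the labels carry no replicate numbers. Depth is known only by inference, so no counting limit is given for low genes.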

Other observations

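The deposited transcripts were also tested 1 by 1, including the assembled ones without a gene name. Of 23346 transcripts tested with limma, 2 passed a Benjamini-Hochberg adjusted p of 0.05, the listed Angptl4 transcript (log2 fold change -2.63, adjusted p = 0.0226) and 1 transcript of Acvrl1, an endothelial receptor of the TGF-beta family, which was higher in AngII+ETH (2.30, SE 0.32, adjusted p = 0.0226). That transcript was at 0.484 ± 0.889 FPKM in saline, 6.04 ± 2.67 in AngII+ETH and 3.03 ± 1.45 in AngII (SD, n = 6 each). The sum over the Acvrl1 transcripts was 9.82 ± 1.41 FPKM in saline and 12.5 ± 2.09 in AngII+ETH, a log2 fold change of 0.31 with a limma adjusted p = 0.683. Acvrl1 was named after its values were seen. The assembly can divide reads among the transcripts of a gene differently from library to library, and another listed Acvrl1 transcript was at -1.42 (SE 0.59). Of 6214 transcripts without a gene name, 0 passed with limma, while 233 were higher and 205 lower at an unadjusted p under 0.05, and the smallest adjusted p was 0.220.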
